A study of Mus musculus with 3 samples.

Results

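Gene counts of 9 transcription factors were described in 3 RNA-seq libraries prepared from T helper 1 (Th1) cells of the mouse. The 9 genes are Gata3, Rora, Foxp3, Bcl6, Maf, Tcf7, Lef1, Zbtb7b and Tox, which direct CD4 T cells to fates other than Th1 or act early in the T cell lineage. They were chosen by symbol, and all 9 were found among the 50600 genes of the deposited tables. The libraries were made from primary Th1 cells of strain C57BL/6NJ and form 1 group of biological replicates 1, 2 and 3. Per the file headers the cells were collected after 48 h, within a series of times for Th1 and Th2 cultures. No other group was analysed here. The assay is titled total RNA, while the linked library protocol is named for poly(A)+ RNA. Age and sex were not recorded, and the labels do not name the stimulus, the cytokines or any allele or agent. All 3 libraries carry 1 donor identifier. The labels number them as biological replicates without naming separate mice or dishes. Differences between them may thus be technical or biological, which the labels do not settle. The exact binomial tests used here measure counting error within or between libraries and take no account of the spread between replicates, which enters only the sign-flip and edgeR tests.

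CD4 T cells take on different effector fates, and each fate is tied to transcription factors that switch on its genes and hold back the others. GATA3 drives Th2 cells, RORα acts in Th17 cells, FOXP3 defines regulatory T (Treg) cells, and BCL6 with MAF supports T follicular helper (Tfh) cells. TCF-1 (the product of Tcf7) and LEF1 are HMG-box factors of naive and developing T cells, ThPOK (Zbtb7b) commits thymocytes to the CD4 lineage, and TOX acts in that commitment and in chronically stimulated T cells. T-bet, encoded by Tbx21, is the regulator of the Th1 fate and is used here as the yardstick.

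Depth differed widely. Replicates 1, 2 and 3 held 4742025, 50627 and 3543816 counts, of which the 9 genes took 2664, 23 and 1707. Taking 3 counts as the limit that a count of 0 allows, the limits of replicates 1, 2 and 3 were 0.633, 59.3 and 0.847 CPM (counts scaled to the library's total), so a 0 in replicate 2 says little. Intervals and limits here cover counting error only. Every level, rank and ratio given here also rests on the strand setting of the deposited counts. Whether that setting fits the library kit is not given in the sources used here; with the opposite setting each count would come from the other strand of the same exons. Counts made that way were not analysed here, so this was not tested. Xist, the RNA of the inactive X chromosome, also differed between libraries, with 691, 18 and 3 counts in replicates 1, 2 and 3. Scaled for depth these were 146, 356 and 0.847 CPM, so that replicate 2 was highest and replicate 3 far below both others. The part of Xist in any result was not tested. The cells carried CD4 T cell and Th1 markers: Cd4 stood at 251, 154 and 108 TPM (counts per exonic length, scaled to the same sum in each library) and Stat4 at 37.0, 42.7 and 12.2 TPM. Of the 2 CD8 T cell genes read, Cd8a had no count, while Cd8b1 had 21, 1 and 13 counts in replicates 1, 2 and 3. In a bulk library, fewer cells that express a gene and less RNA per cell cannot be told apart.

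Sequences before the annotated starts show where these genes lie against their neighbours. Each is the 250 bases upstream of a RefSeq start (GRCm38.p6), 5′ to 3′ on the strand of the gene. Foxp3 and Tbx21 are shown because their order differs between libraries, and Gata3 and Lef1 because their upstream bases lie entirely within exons of a gene on the other strand. Capitals mark matches to 4 kinds of short motif, searched on both strands with overlaps allowed. The TCF and LEF type is CTTTGN with its last base limited to A or T, and the GATA type is NGATAA with its first base limited to A or T. The T-box type is GGTGTG. The last, a TATA box, is spelled TATAAA.
Foxp3, chrX:7579426-7579675, plus strand: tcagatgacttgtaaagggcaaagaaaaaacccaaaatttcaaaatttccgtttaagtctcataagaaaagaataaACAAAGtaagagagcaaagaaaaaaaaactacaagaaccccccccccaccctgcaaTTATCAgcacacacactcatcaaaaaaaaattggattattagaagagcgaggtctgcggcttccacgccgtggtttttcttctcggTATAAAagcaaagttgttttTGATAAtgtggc
Tbx21, chr11:97115332-97115581, minus strand: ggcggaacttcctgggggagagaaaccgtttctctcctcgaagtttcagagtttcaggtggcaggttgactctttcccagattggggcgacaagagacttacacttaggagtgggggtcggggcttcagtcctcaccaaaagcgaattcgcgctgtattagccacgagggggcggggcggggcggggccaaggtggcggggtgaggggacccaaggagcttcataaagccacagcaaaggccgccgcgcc
Gata3, chr2:9878601-9878850, minus strand: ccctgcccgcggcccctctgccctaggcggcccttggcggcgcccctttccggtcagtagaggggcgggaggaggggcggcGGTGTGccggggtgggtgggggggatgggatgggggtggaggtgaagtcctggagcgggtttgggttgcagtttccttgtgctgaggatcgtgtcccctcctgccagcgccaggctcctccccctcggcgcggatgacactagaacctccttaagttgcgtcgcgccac
Lef1, chr3:131110073-131110322, plus strand: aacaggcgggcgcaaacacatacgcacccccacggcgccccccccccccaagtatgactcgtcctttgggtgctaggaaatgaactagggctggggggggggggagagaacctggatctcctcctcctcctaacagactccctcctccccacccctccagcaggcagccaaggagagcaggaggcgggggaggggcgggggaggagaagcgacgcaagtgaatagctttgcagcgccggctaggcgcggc

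In the Foxp3 sequence the search found 1 match of the TCF and LEF type starting at position -174, 2 of the GATA type at -118 and at -12, and TATAAA at -32, counting back from -1 at the last base. The Gata3 sequence held 1 match of the T-box type at -169, and the Tbx21 and Lef1 sequences held none of the 4 kinds. Such letters are common: 27.6% of 32817 RefSeq upstream sequences of this length hold the TCF and LEF type, 16.6% the GATA type, 16.3% the T-box type and 12.4% TATAAA. The Foxp3 and Tbx21 starts match the first base of these genes in the deposited tables, whereas the RefSeq start of Gata3 lies 11434 bases and that of Lef1 148 bases from it. All 250 upstream bases of Gata3 are exonic in Gm13256 on the plus strand, and all 250 of Lef1 are exonic in Gm43352 on the minus strand. The Foxp3 sequence overlaps an exon of Flicr, a long non-coding RNA of the same strand.

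The 9 genes ran from no count to a mean of 112 TPM. Of the 9, 4 reached 1 TPM in every library (Tcf7, Foxp3, Lef1 and Zbtb7b), where 29.4% of 21764 protein-coding genes did. In replicates 1 and 3 alone 7 of the 9 did, against 44.3% of protein-coding genes, as Gata3, Tox and Rora were lost only to 0 counts in replicate 2. Bcl6 was at the edge of this floor and Maf had no count in any library. The 4 were the same at a floor of 5 TPM. The remaining genes had 0 counts in replicate 2 and so could pass no floor there.

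**Figure D1:**
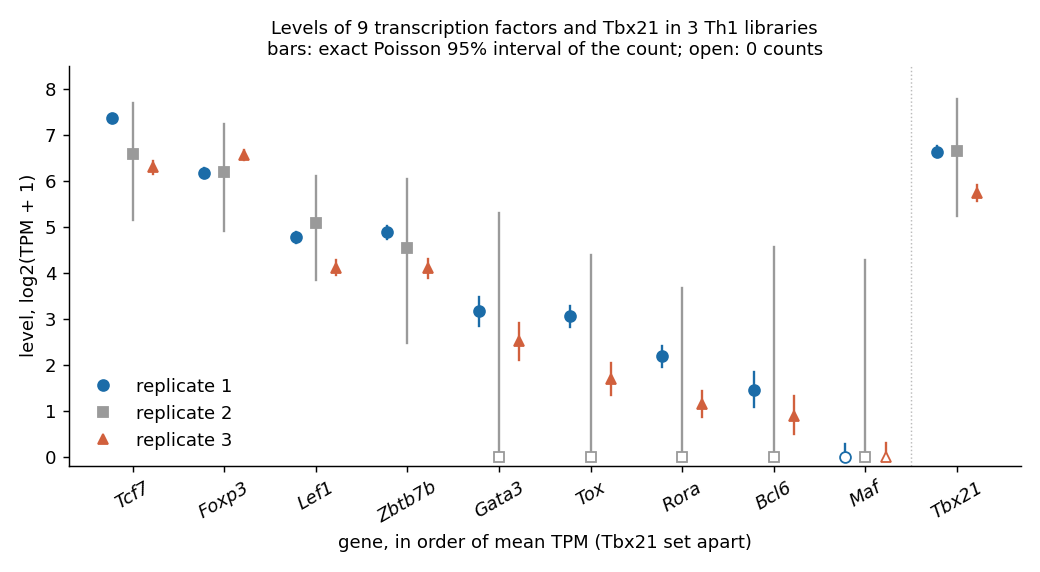
Levels as log2(TPM + 1) of the 9 genes, in order of mean TPM, and of Tbx21 in replicates 1, 2 and 3. Points are libraries, bars are exact Poisson 95% intervals of the count, and open symbols mark 0 counts; the intervals of replicate 2 span several log2 units, and Foxp3 is the one gene highest in replicate 3.

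Of the early T cell factors, Tcf7, Lef1 and Zbtb7b lay in the upper part of the order, together with Foxp3, and Tox did not. Tcf7 (chromosome 11, 52252371 to 52283014, minus strand, mm10), which encodes TCF-1, had 913, 6 and 402 counts in replicates 1, 2 and 3, or 162, 94.4 and 77.7 TPM. Its mean was 112 ± 44.9 TPM (SD, n = 3), and it exceeded 97.2% of protein-coding genes in replicate 1 and 96.1% in replicate 3. No exon of Tcf7 overlaps one on the opposite strand. It took 52.6% of the summed TPM of the 9 genes in replicate 1, 42.5% in replicate 2 and 36.6% in replicate 3.

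Lef1 (chromosome 3, 131110471 to 131224356, plus strand), the HMG-box partner of TCF-1, had 495, 7 and 281 counts, or 26.3, 32.9 and 16.2 TPM (mean 25.1 ± 8.39, n = 3). Zbtb7b (chromosome 3, 89377644 to 89394776, minus strand) had 339, 3 and 178 counts, or 28.3, 22.2 and 16.2 TPM (mean 22.2 ± 6.08, n = 3). These 2 were level with each other: the log2 TPM ratio of Lef1 to Zbtb7b was -0.11 in replicate 1 (exact 95% interval -0.31 to 0.10) and 0.01 in replicate 3 (-0.27 to 0.29). Tox (chromosome 4, 6686353 to 6991557, minus strand) was far lower, with 119, 0 and 33 counts, or 7.30, 0 and 2.20 TPM.

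Foxp3, the Treg factor, stood second. It had 606, 7 and 734 counts, or 71.0, 72.5 and 93.4 TPM (mean 78.9 ± 12.5, n = 3), and was the highest of the 9 in replicate 3 with 44.0% of their summed TPM, against 23.0% in replicate 1. Its position makes this level, its rank and these shares uncertain. Foxp3 (chromosome X, 7579676 to 7595243, plus strand) shares 590 exonic bases, or 14.8% of its exons, with Ccdc22 on the minus strand. All 590 lie in the annotated untranslated part of the last Foxp3 exon, between 14133 and 15379 bases after its start, and 342 of them code for protein in Ccdc22. Ccdc22, an adaptor of endosomal sorting, had only 4, 0 and 8 counts, or 0.545, 0 and 1.18 TPM, and the log2 ratio per length of Ccdc22 to Foxp3 was -7.02 in replicate 1 (exact 95% interval -8.90 to -5.66) and -6.30 in replicate 3 (-7.52 to -5.31). Gm36995, a transcript of the minus strand that overlaps Ccdc22, shares 373 exonic bases with Foxp3 and had no count. How many Foxp3 counts fell in the shared bases cannot be read from counts per gene, so the part of Ccdc22 in them was not tested. On the same strand Foxp3 shares 267 bases with Flicr (22, 0 and 38 counts), and fragments that fit both genes were not counted for either.

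**Figure D2:**
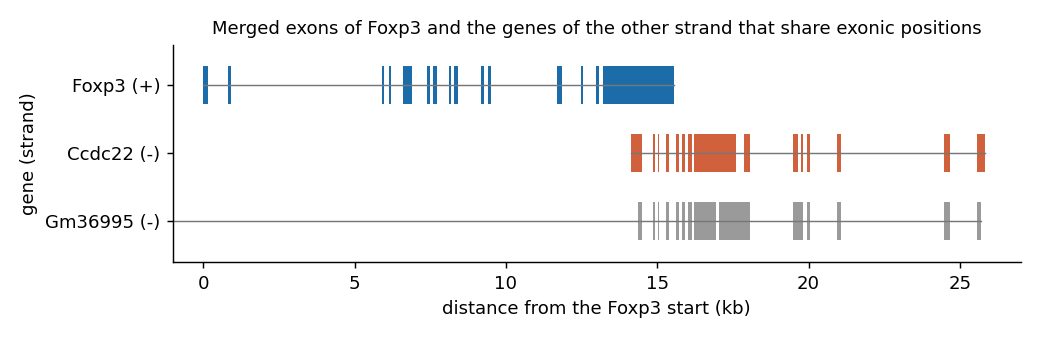
Merged exons of Foxp3 on the plus strand and of Ccdc22 and Gm36995 on the minus strand, drawn to scale as distance in kb from the Foxp3 start. Boxes are exons and lines the gene span (Gm36995 continues to the left); the shared positions all lie in the last Foxp3 exon.

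The remaining fate regulators were low. Gata3 (chromosome 2, 9857078 to 9890034, minus strand), the Th2 factor, had 68, 0 and 37 counts, or 7.98, 0 and 4.72 TPM, which put it above 68.2% of protein-coding genes in replicate 1 and 70.2% in replicate 3. Rora (chromosome 9, 68653786 to 69388246, plus strand), of the Th17 programme, had 99, 0 and 31 counts, or 3.54, 0 and 1.20 TPM. Bcl6 (chromosome 16, 23965052 to 23988852, minus strand), the repressor that defines Tfh cells, had 25, 0 and 11 counts, or 1.74, 0 and 0.833 TPM. Both deep libraries held these 3 genes, and the exact 95% intervals of replicate 2 reached 38.3, 11.7 and 22.7 TPM, so its zeros are no sign of a lower level there. Maf (chromosome 8, 115682942 to 115707794, minus strand), a bZIP factor of Tfh, Th17 and interleukin 10-producing cells, had 0 counts in all 3 libraries. For its exonic length of 8241 bases the limit of 3 counts is 0.170 TPM in replicate 1, 15.0 TPM in replicate 2 and 0.185 TPM in replicate 3.

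Neighbours in this order were compared in each library by an exact two-sided binomial test of the 2 counts with length as the offset, adjusted by Benjamini-Hochberg over 24 tests. Of the 8 neighbouring pairs, 4 were separated in the same direction in both replicates 1 and 3: Foxp3 above Lef1, Zbtb7b above Gata3, Tox above Rora and Bcl6 above Maf. The step from Zbtb7b to Gata3 was a log2 TPM ratio of 1.83 in replicate 1 (exact 95% interval 1.45 to 2.22) and 1.78 in replicate 3 (1.26 to 2.33). That from Tox to Rora was 1.05 (0.65 to 1.45) and 0.87 (0.12 to 1.63), with an adjusted p of 0.038 by the exact test in replicate 3. This separation was lost at an adjusted p under 0.01 and with CPM in place of TPM (adjusted p = 0.34 and 1 in replicates 1 and 3, exact test), while CPM separated Lef1 from Zbtb7b and Rora from Bcl6 in both. The step from Foxp3 to Lef1 was 1.43 (1.26 to 1.61) and 2.52 (2.32 to 2.73), but Foxp3 carries the limit above. In replicate 2 none of the 8 pairs was separated, the smallest adjusted p of the exact tests there being 0.28.

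The other 4 steps did not hold in both libraries. Tcf7 exceeded Foxp3 in replicate 1 (log2 TPM ratio 1.20, exact 95% interval 1.05 to 1.35) and was below it in replicate 3 (-0.26, -0.44 to -0.09; adjusted p = 0.0065, exact test). Gata3 and Tox were level in replicate 1 (0.13, -0.32 to 0.57) and Gata3 was higher in replicate 3 (1.10, 0.38 to 1.82). Rora was above Bcl6 in replicate 1 (1.02, 0.38 to 1.72), while the interval in replicate 3 included 0 (0.53, -0.50 to 1.67). Lef1 and Zbtb7b, as given above, were separated in neither.

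Set against T-bet, most of the regulators were low. Tbx21 had 522, 6 and 255 counts, or 98.0, 99.6 and 52.0 TPM (mean 83.2 ± 27.0, n = 3). Of the 9 genes 7 were below it in every library, where 93.2% of protein-coding genes were, so that count is not particular to these regulators. Tcf7 was the exception at the top, above Tbx21 by a log2 TPM ratio of 0.73 in replicate 1 (exact 95% interval 0.57 to 0.89) and 0.58 in replicate 3 (0.35 to 0.81). In replicate 2, with 6 counts each, the ratio was -0.08 (-1.98 to 1.83). Its mean over libraries was 0.41 ± 0.43 (n = 3; exact two-sided sign-flip p = 0.50). Foxp3 lay on either side of Tbx21, at -0.47 (-0.64 to -0.29) in replicate 1 and 0.84 (0.64 to 1.06) in replicate 3.

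Lef1 and Zbtb7b were 3.72-fold and 3.46-fold below Tbx21 in replicate 1 and 3.21-fold and 3.22-fold below it in replicate 3. Their mean log2 ratios were -1.73 ± 0.15 and -1.88 ± 0.25 (n = 3), below Tbx21 in 3 of 3 libraries, with an exact two-sided sign-flip p = 0.25, the smallest that 3 libraries allow. Gata3 was 12.3-fold below Tbx21 in replicate 1 and 11.0-fold in replicate 3, and Bcl6 56.2-fold and 62.4-fold. Tox was 13.4-fold below Tbx21 in replicate 1 and 23.6-fold in replicate 3, and Rora 27.7-fold and 43.2-fold. Maf was at least 576-fold lower than Tbx21 in replicate 1 and at least 282-fold lower in replicate 3, taking the Tbx21 counts as exact. In replicate 2 the bound for Maf was only 6.62-fold.

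**Figure D3:**
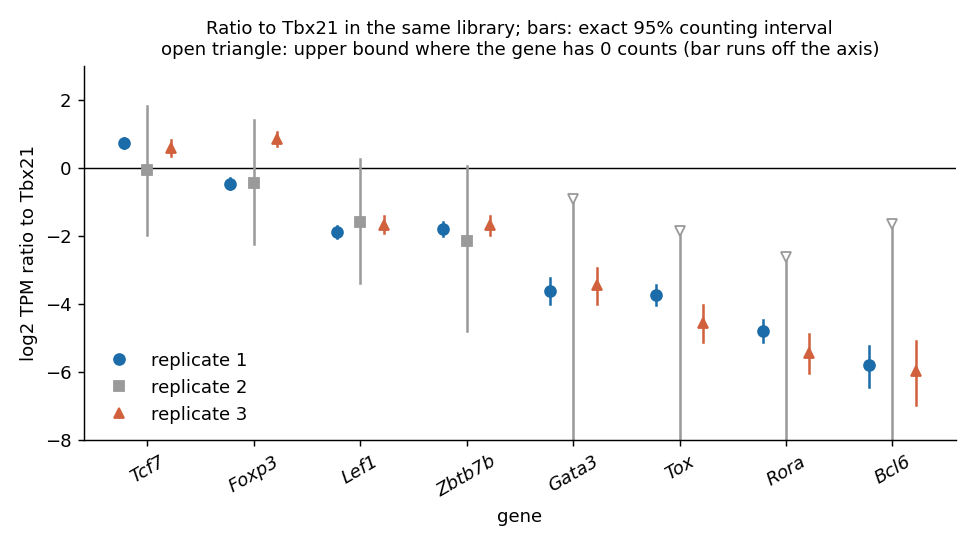
Log2 TPM ratio to Tbx21 of 8 of the genes in each library, with exact 95% counting intervals. Open triangles give the upper bound where a gene has 0 counts; Tcf7 lies above 0 in replicates 1 and 3, Foxp3 on both sides, and the other 6 below 0 in both.

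Relatives within each DNA-binding family were read from the same libraries. Of 21 relatives, 9 reached 1 TPM in both replicates 1 and 3 and 7 had no count. In the Tcf7 and Lef1 family the relatives Tcf7l1 and Tcf7l2 had 4, 0 and 3 and 3, 0 and 1 counts. Zbtb7a (LRF) had 251, 1 and 118 counts and stood at 17.2 and 8.79 TPM in replicates 1 and 3, below Zbtb7b in both (log2 ratio -0.72, exact 95% interval -0.96 to -0.48 in replicate 1). In these 2 families the listed member thus carried the higher level. Gata1 had 5, 0 and 4 counts and Gata2 none, both below Gata3.

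In the Tox and Maf families a relative stood above the listed member. Tox4, a chromatin-associated relative, had 1003, 15 and 928 counts, or 67.5, 89.2 and 67.8 TPM, above Tox by a log2 ratio of 3.21 and 4.95 in replicates 1 and 3; 18.7% of Tox4 exons coincide with exons of the other strand. The small MAF genes Maff (86, 1 and 83 counts), Mafk (174, 1 and 72) and Mafg (152, 1 and 71), which lack the activation domain of MAF, were all detected, while Maf, Mafa and Nrl had no count. Bcl6b had 13, 0 and 8 counts, and its ratio to Bcl6 included 0 in replicate 1 (-0.09, -1.18 to 0.93). Among FOXP genes, Foxp4 stood at 53.1 and 24.8 TPM and Foxp1, a factor of T cell quiescence, at 24.3 and 12.2 TPM in replicates 1 and 3, both below Foxp3.

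**Figure D4:**
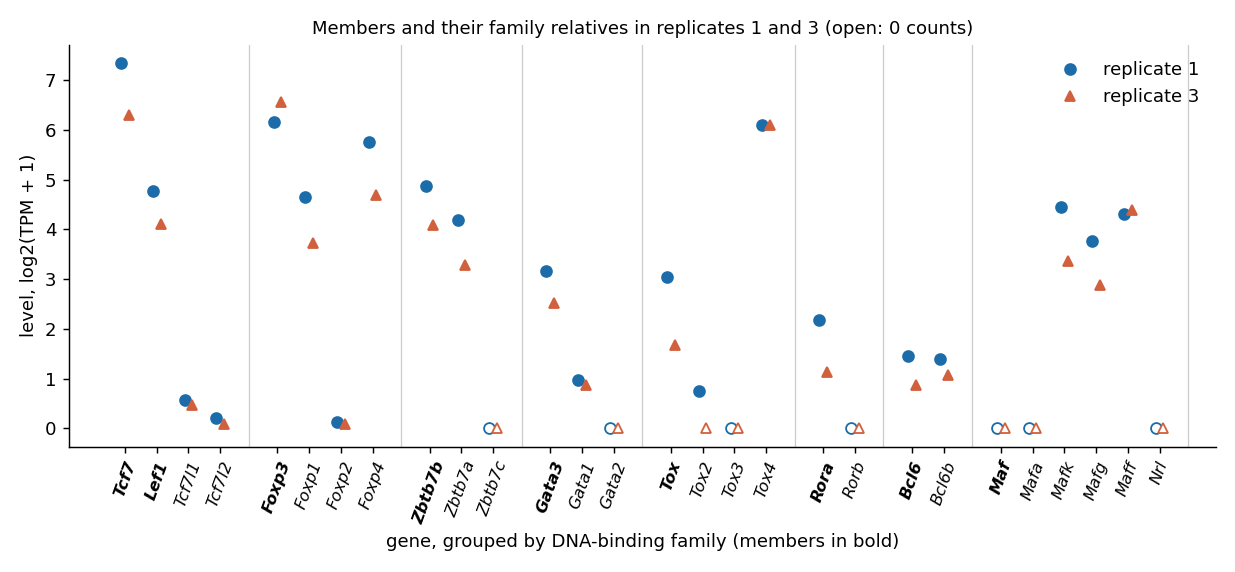
Levels as log2(TPM + 1) of the listed genes (bold) and those of their family relatives that are reported here in replicates 1 and 3. Open symbols mark 0 counts; Tox4 lies above Tox, and the small MAF genes above Maf.

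Antisense neighbours of these genes took many counts. Of the 9, 8 share at least 1 exonic base with a gene of the other strand, as do 22.1% of protein-coding genes. For Gata3, Lef1, Tox, Rora and Bcl6 that partner stood above the regulator per length in both deep libraries. Gm13256 (chromosome 2, 9877256 to 9878869, plus strand), which covers the upstream bases of Gata3 printed above, had 172, 1 and 177 counts against 68, 0 and 37 for Gata3. Its log2 ratio per length to Gata3 was 4.27 in replicate 1 (exact 95% interval 3.86 to 4.70) and 5.19 in replicate 3 (4.68 to 5.75). Gm11802 (chromosome 4, 6688169 to 6704160, plus strand), within Tox, had 414, 5 and 539 counts, or 296, 316 and 419 TPM, a log2 ratio to Tox of 5.34 (5.04 to 5.65) and 7.57 (7.06 to 8.13). Neither interval comes near 0 for either partner.

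Gm43352 (chromosome 3, 131109026 to 131112090, minus strand), at the start of Lef1, had 574, 4 and 719 counts, a log2 ratio to Lef1 of 1.73 (1.56 to 1.91) and 2.88 (2.67 to 3.08) in replicates 1 and 3. It shares 13.7% of the Lef1 exons; the shares of Gata3 (3.90%), Tox (3.42%), Zbtb7b (2.07%), Rora (0.627%) and Bcl6 (0.313%) are smaller. Gm15511 in Rora had 31, 0 and 42 counts and Gm37419, which shares 21 bases with the first exon of Bcl6, had 26, 0 and 29. For Maf, Gm15655, all of whose exonic bases fall within Maf exons, had 2, 0 and 5 counts where Maf had none. Gm15417, opposite Zbtb7b, was low with 8, 0 and 8 counts. Pairs of a protein-coding gene and an opposite-strand gene of another biotype were taken where both genes together had at least 20 counts in each of replicates 1 and 3. The partner was the higher per length in both libraries in 4 of 6 such pairs of these regulators (Gata3, Lef1, Tox and Rora, not Zbtb7b or the pair of Foxp3 with Gm36995), against 76% of all 1601 pairs. Genes with an opposite-strand exonic overlap, 16.2% of all genes, also weighed on the TPM scale. With the scale set over the genes without such overlap, the mean of Tcf7 was 382 TPM in place of 112. The limit on the strand setting given with the depths applies to these pairs as to every level, and the fit of that setting was not tested.

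Replicates 1 and 3 differed for 3 of the regulators. The counts of each gene were compared by an exact two-sided binomial test on TMM-scaled totals (a scaling that centres the bulk of genes), with Benjamini-Hochberg adjustment over the 11704 genes with at least 20 counts. At an adjusted p under 0.05, 3 of the 8 genes that could be tested were called (Foxp3, Lef1 and Tox), where 36.5% of all genes were, 26.9% higher and 9.64% lower in replicate 3. The share among the regulators is near that background. The test compares 2 libraries of 1 group, not conditions.

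Foxp3 was higher in replicate 3, with a log2 ratio of 1.39 (exact 95% interval 1.23 to 1.54; adjusted p = 7.4e-67, exact test). With a negative binomial exact test in edgeR that allows for the common spread of the 3 libraries, its adjusted p was 0.43. None of the 8 was called by that edgeR test, adjusted or unadjusted, against 0.094% of all genes. Its spread was estimated from these same 3 libraries as 1 group and so includes the differences under test. The lack of calls therefore decides nothing. Tox was lower, at -0.74 (-1.34 to -0.17; adjusted p = 0.026, exact test), and Lef1 higher, at 0.29 (0.08 to 0.51; adjusted p = 0.021, exact test). Tcf7 had a ratio of -0.07 (-0.25 to 0.10), Zbtb7b of 0.18 (-0.09 to 0.45), Gata3 of 0.23 (-0.39 to 0.83), Rora of -0.57 (-1.20 to 0.03) and Bcl6 of -0.07 (-1.25 to 1.00), none past the threshold. A chi-square test over all 3 libraries, with TMM scaling over the 3, called Tcf7 and Foxp3 of the 4 regulators it could test, not Lef1 or Zbtb7b, where it called 63.2% of all genes. Scaling to total counts moved every log2 ratio by -0.69, which turned Lef1 (-0.40), Zbtb7b (-0.51) and Gata3 (-0.46) below 0 and gave 6 calls among the 8: Foxp3 higher, and Tcf7 (-0.76; adjusted p = 8.4e-19, exact test), Lef1, Zbtb7b, Rora and Tox lower. By that scaling 76.8% of all genes were called, 57.5% lower and 19.3% higher. The direction of Foxp3, Tox and Rora was the same under all 4 scalings tried. For Tox the call was lost (adjusted p = 0.091, exact test) when TMM used only genes without opposite-strand exons.

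The ratio between these libraries went with antisense overlap. The 7024 tested genes without opposite-strand exons had a median log2 ratio of -0.14 (quartiles -0.36 and 0.11), and the 4680 with some had a median of 0.92 (-0.04 and 1.46). Foxp3 exceeded 96.0% of the genes without overlap, Lef1 84.3%, Gata3 82.2% and Tcf7 58.6%, while Rora exceeded 10.6% and Tox 5.45%. The partners were higher in replicate 3: Gm13256 by 1.15, Gm43352 by 1.43, Gm11802 by 1.49, Gm15511 by 1.55 and Gm37419 by 1.27 (adjusted p = 0.0045 or less in each, exact test). The ratio of Foxp3 lay within the range of these 5 partners, 1.15 to 1.55. The part of the overlap in its ratio was not tested.

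**Figure D5:**
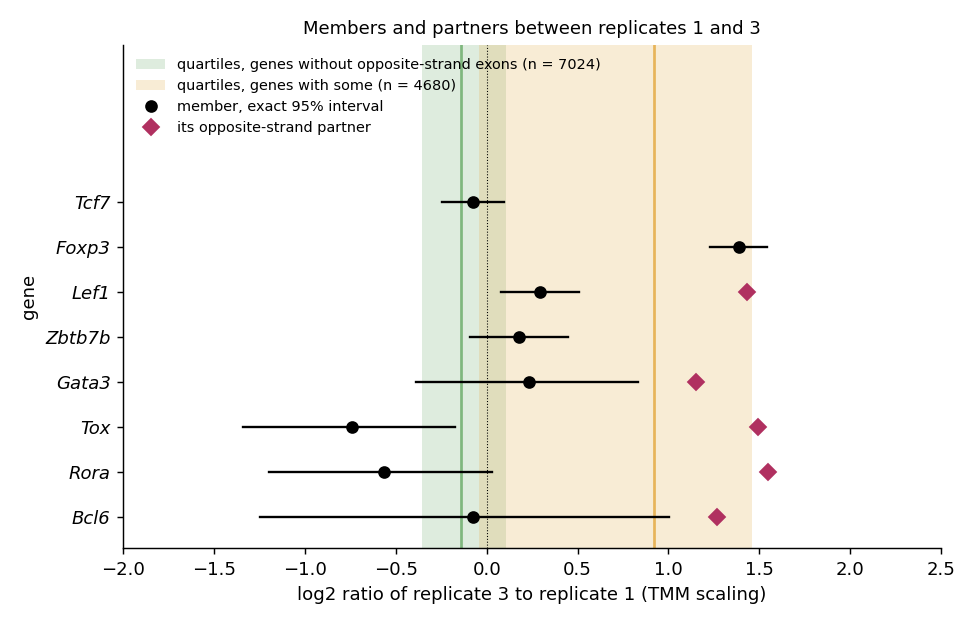
Log2 ratio of replicate 3 to replicate 1 under TMM scaling for the 8 tested genes (points, exact 95% intervals) and their opposite-strand partners with at least 20 counts (diamonds). Bands are the quartiles and lines the medians of genes without (green) and with (orange) opposite-strand exons; Foxp3 and all 5 partners lie above 1. With total counts every value moves by -0.69, which puts Lef1, Zbtb7b and Gata3 below 0.

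Genes that work with these regulators were read from fixed lists. Of 11 genes of the Gata3 programme 7 reached 1 TPM in both deep libraries; Stat6, the signal transducer of interleukin 4, led with 102, 65.7 and 56.9 TPM, and the zinc-finger repressor Gfi1 had 41.3, 25.9 and 18.6 TPM. Ptgdr2, a prostaglandin receptor of Th2 cells, had 208, 0 and 288 counts, but 39.0% of its exonic bases coincide with exons of Ccdc86. Il4 and Il13, the cytokines of Th2 cells, had 25, 2 and 24 and 34, 0 and 17 counts. Of these 11, 7 were tested between replicates 1 and 3; 2 were higher in replicate 3 and none lower. For this and the following lists the background under the same TMM scaling is the 26.9% higher and 9.64% lower of all genes, and with so few genes tested nothing is read from a list's calls. In the ROR list 5 of 12 reached 1 TPM in both, led by Batf (198, 43.2 and 87.1 TPM) and Irf4 (134, 131 and 54.2 TPM), AP-1 and IRF factors of activated T cells, and by Stat3. Of the 12, 6 had at most 5 counts over all libraries, Il17a, Il17f and Il22 among them. Of 5 tested, 1 was higher and 1 lower.

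In the Foxp3 list 8 of 12 reached 1 TPM in both deep libraries. Tnfrsf18 (27.2% of exonic bases shared with the other strand), Il2ra and Ctla4 led at 197, 135 and 85.9, at 184, 217 and 86.3, and at 168, 106 and 69.5 TPM; activated T cells without Foxp3 also express them. Nrp1, a receptor of thymic Treg cells, had 257, 4 and 254 counts (12.3, 16.9 and 13.2 TPM). Ikzf2, which encodes Helios, a factor of those cells, had 38, 1 and 15 counts (1.53, 3.56 and 0.655 TPM), Ikzf4 had 24, 0 and 3, Gpr83 22, 0 and 9 and Lrrc32 1, 0 and 2. Of 11 tested, 2 were higher in replicate 3 and 1 lower. In the Bcl6 and Maf list 9 of 12 did so, led by Cd200 (190, 211 and 81.0 TPM), Pdcd1, the receptor PD-1, and Id3. Prdm1, which encodes BLIMP-1, the antagonist of BCL6, had 1, 0 and 1 counts and Ascl2 none. Of 9 tested, none was higher and 2 were lower.

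For Tcf7 and Lef1, 11 of 12 cofactors and target genes reached 1 TPM in both deep libraries, led by Ccr7, the lymph node homing receptor (113, 209 and 60.0 TPM), Ctnnb1, which encodes beta-catenin (65.5, 39.8 and 27.2 TPM; 14.6% of exonic bases shared with the other strand), and Bach2 (26.5, 20.8 and 11.8 TPM). Axin2, a feedback inhibitor and Wnt target, had 32, 2 and 38 counts. All 12 were tested; 1 was higher and 3 lower in replicate 3. For Zbtb7b and Tox, 10 of 11 genes of the CD4 and CD8 choice did so, led by Cd4, Ikzf1 (151, 121 and 61.1 TPM) and Tcf3. Runx3, the CD8 lineage and Th1 factor that opposes ThPOK, had 276, 1 and 106 counts, and Cd8b1 had 21, 1 and 13. Of 10 tested, none was higher and 2 were lower.

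Markers of other cells were sparse, apart from Csf1r. Of 6 genes of type 2 innate lymphoid cells, which rely on Gata3 and Rora, 4 had no count, and the list summed to 1.35, 0 and 3.64 TPM; Il17rb had 3, 0 and 11 counts and Arg1 4, 0 and 7. Of 6 B cell genes 3 had no count, Pax5 and Ms4a1 among them, and Cd79a had 10, 0 and 22 (list sums 3.63, 0 and 8.42 TPM); it was the 1 gene of the list tested and was higher in replicate 3, by a log2 ratio of 2.25. Of 6 myeloid genes 4 had no count (Lyz2, Itgam, Adgre1 and Cd14) and Itgax had 1, 0 and 0. Csf1r, with 17.8% of its exonic bases shared with the other strand, made up nearly all of the sums of 105, 84.5 and 167 TPM. It too was the 1 gene of its list tested and was higher in replicate 3, by 1.66, the direction of Foxp3. The median ratio of tested genes with opposite-strand exons was 0.92. With total counts the ratios of Cd79a and Csf1r fall by 0.69 and stay above 0. The part of B cells or myeloid cells in the ratio of Foxp3 was not tested. The listed gene with the levels most like those of each regulator but Lef1, by Euclidean distance of log2(TPM + 1) over the 3 libraries, was Ctla4 for Tcf7 (0.24), Tox4 for Foxp3 (0.55), Il4ra for Zbtb7b (0.32), Tle4 for both Gata3 (0.30) and Tox (0.70), Ahr for Rora (0.44), Tle1 for Bcl6 (0.11) and Itgax for Maf (0.13).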

How the data were processed

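RNA of 3 libraries of 1 group was measured by RNA sequencing. The authors counted fragments per gene with featureCounts 1.4.6-p4 (both ends of a pair aligned, strand setting 1, GENCODE M13), per the file headers, and deposited the raw counts, on mm10 per the labels. The library kit and the aligner's version: not given in the sources used here. Exonic lengths came from the same deposited tables.

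CPM, TPM and FPKM were computed from the counts. Symbols matched for 50376 of 50600 genes. Biotypes came from GENCODE M21 on the same assembly and exon overlap from bedtools 2.31.1. Tests used Python 3.11.15 with scipy 1.17.1, edgeR 4.0.16 for TMM and the negative binomial exact test, and DESeq2 1.42.0 for alternative size factors, in R 4.3.3. With 1 group, no edgeR quasi-likelihood comparison of groups was made. Intervals are exact at 95%. Counts were simulated for replicate 3 against replicate 1 over 11704 genes. The binomial test called 96% of genes changed 2-fold, 100% of those changed 4-fold and 0.052% of unchanged genes. The changed genes had at least 100 counts over both libraries. Between the measured replicates 1 and 3, which are of 1 group, the same test called 36.5% of genes. The simulated rate is therefore no measure of false calls where replicates vary beyond counting error.

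The regulators, lists and tests were chosen with earlier results of these data known. Named genes were all 9 regulators, Tbx21, their opposite-strand partners, the highest of each family, the 3 highest of each list by mean TPM of replicates 1 and 3, and the nearest listed gene; other listed genes, Xist and Flicr were chosen after their values were seen. Some listed genes count in the totals of their lists and are not reported here by name.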

Additional observations from a re-analysis of the deposited data

How the results depend on the processing

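The number of the 9 regulators at 1 TPM in every library was 4, 4 to 7 when each replicate was left out (7 without replicate 2), and 2 of 7 among those with under 10% opposite-strand overlap, a choice made after the data were seen. The number that differed between replicates 1 and 3 was 3, 6 with total counts, 1 of 6 among those with under 10% overlap, and 0 with edgeR's common dispersion (0 also at an unadjusted p under 0.05). For pairs with the shallow replicate 2 it was 0 without replicate 3 and 0 without replicate 1 (0 and 1 at an unadjusted p under 0.05, exact binomial test). Over all genes the number was 4277, 8989 with total counts, 11 with edgeR's common dispersion, and 124 without replicate 3 to 559 without replicate 1. Log2 ratios of replicate 3 to replicate 1 that changed sign were Lef1 (-0.40), Zbtb7b (-0.51) and Gata3 (-0.46) with total counts, and Tcf7 (0.069) and Bcl6 (0.068) with TMM from genes without opposite-strand exons; of these, Lef1 was called under both scalings and Zbtb7b with total counts alone. TPM scaled over genes without opposite-strand exons raised every mean but the 0 of Maf (Tcf7 to 382, Foxp3 to 302) and FPKM lowered them (Tcf7 to 53.9, Foxp3 to 39.5), with the order unchanged under both; without replicate 2, Lef1 and Zbtb7b changed places. The regulators below Tbx21 in every library numbered 5 to 8 over the settings tried, and the separated neighbours 3 (adjusted p under 0.01) to 5 (CPM), both without Tox above Rora. The chi-square test over 3 libraries called 2 of 4 regulators, Foxp3 and Tcf7. No paired analysis was possible because there is 1 group. Depth limits replicate 2, where 1 count is worth 19.8 CPM.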
